A study of Caenorhabditis elegans with 45 samples.

Results

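The fbxb and fbxc genes of Caenorhabditis elegans encode F-box proteins, and they were taken as every gene of the deposited expression table whose WormBase symbol starts with fbxb- or fbxc-. This gave 149 of 18589 genes, of which 101 were fbxb and 48 were fbxc, and all 149 are annotated as protein coding. The annotation holds 152 such genes; fbxb-14, fbxb-58 and fbxb-79 were not analysed here. The symbols covered 143 distinct names, because fbxc-4, fbxc-5 and fbxc-8 are each annotated at more than 1 position.

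An F-box protein is the substrate receptor of an SCF ubiquitin ligase. Its F-box motif binds a Skp1-related adaptor (in C. elegans one of the SKR proteins), which in turn binds the cullin CUL-1 and the RING protein RBX-1, while the rest of the F-box protein holds the substrate that is to be marked with ubiquitin. C. elegans has a much larger set of F-box genes than most animals, and most of that set lies in the fbxa, fbxb and fbxc families, whose substrates are for the most part not known. A role is therefore given below for the SCF genes but not for single fbxb or fbxc genes.

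RNA was sequenced from whole day 1 adult hermaphrodites of 5 strains, the laboratory strain N2 and the wild isolates JU1088, EG4348, CB4856 and QX1211. Each strain was fed E. coli HT115 that carried the empty vector pL4440 (CTR), a par-1 RNAi vector (PAR1) or a pos-1 RNAi vector (POS1) for about 2 days from the first larval stage, with 3 replicates for each of the 15 combinations and 45 libraries in all. par-1 encodes a kinase of embryonic polarity and pos-1 an RNA-binding protein of early embryonic fate, and RNAi against either is lethal to embryos of strains that respond to feeding. Worms were kept at 20 °C before the experiment except QX1211, which was kept at 18 °C, and plates for the wild isolates held added agarose; the libraries were made from whole animals that carried germline and embryos. In such bulk samples fewer cells of a type and less RNA per cell cannot be told apart.

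Each library held between 4269033 and 17865356 reads assigned to genes (median 7478891). In POS1 the pos-1 transcript was lower than in CTR by log2 fold changes of -2.57 in N2, -3.59 in JU1088 and -1.23 in EG4348 (edgeR quasi-likelihood adjusted p from 1.97e-23 to 8.58e-10), with values of -0.05 in CB4856 and -0.13 in QX1211 (adjusted p of 1 and 0.971). The par-1 transcript in PAR1 lay between -0.18 and 0.24 of CTR on the log2 scale in the 5 strains (adjusted p from 0.497 to 1), so its level gives no check of the PAR1 label. The libraries QX1211 CTR replicate 1, CB4856 PAR1 replicate 3 and JU1088 POS1 replicate 2 were deposited with 1 shared fragment length. JU1088 POS1 replicate 2 also had the lowest summed oocyte, intestinal, muscle and hypodermal markers of its group. In normalized counts the oocyte sum was 47333, against 67128 and 64725 in replicates 1 and 3. The hypodermal sum was 10548, against 19375 and 13336, a smaller gap to replicate 3.

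The fbxb and fbxc genes lay mostly near chromosome ends and in runs. Chromosome II held 92 of the 149, and 90 of these were in its first 5 Mb; chromosome IV held 21, V held 16, I held 10, III held 8 and X held 2. With neighbours joined across gaps of up to 50000 bp, 121 members fell into runs of 2 or more. The longest runs were at II:868814-1049949 (25 members, 6 fbxb and 19 fbxc), at II:1647908-1863782 (24 members, 20 fbxb and 4 fbxc) and at V:19233769-19330757 (12 members, all fbxb); coordinates are those of the WBcel235 assembly. The 3 rows named fbxc-4, the 2 named fbxc-5 and the 4 named fbxc-8, all at IV:891239-911196, carried identical values within each name, since reads were shared evenly between copies, so the level of a single copy is uncertain. None of these 9 rows was called in any comparison below. Another 12 members overlap a gene on the same strand, where reads of either gene may be assigned to the other.

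Most members were expressed at a low level. In TPM (a transcript level scaled for its length and for the size of the library), the median over the 15 CTR libraries was 1.19 for fbxb genes, 1.02 for fbxc genes and 4.44 for all genes of the table, and 60 of the 149 members were under 1 TPM. The 6 highest were all fbxc genes, namely fbxc-44, fbxc-50, fbxc-47, fbxc-32, fbxc-45 and fbxc-52. fbxc-44 (WBGene00015819, II:4236504-4237751) was highest in CTR in N2 at 83.7 ± 6.9 TPM, followed by JU1088 at 73.1 ± 11, EG4348 at 69.4 ± 5.3, CB4856 at 46.5 ± 2.5 and QX1211 at 36.6 ± 7.7 (mean ± SD, n = 3 each). Its 3 upper strains did not differ from each other past the threshold, nor did CB4856 and QX1211, and each of the lower pair was below each of the upper 3 (adjusted p from 2.11e-05 to 0.0127).

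**Figure D1:**
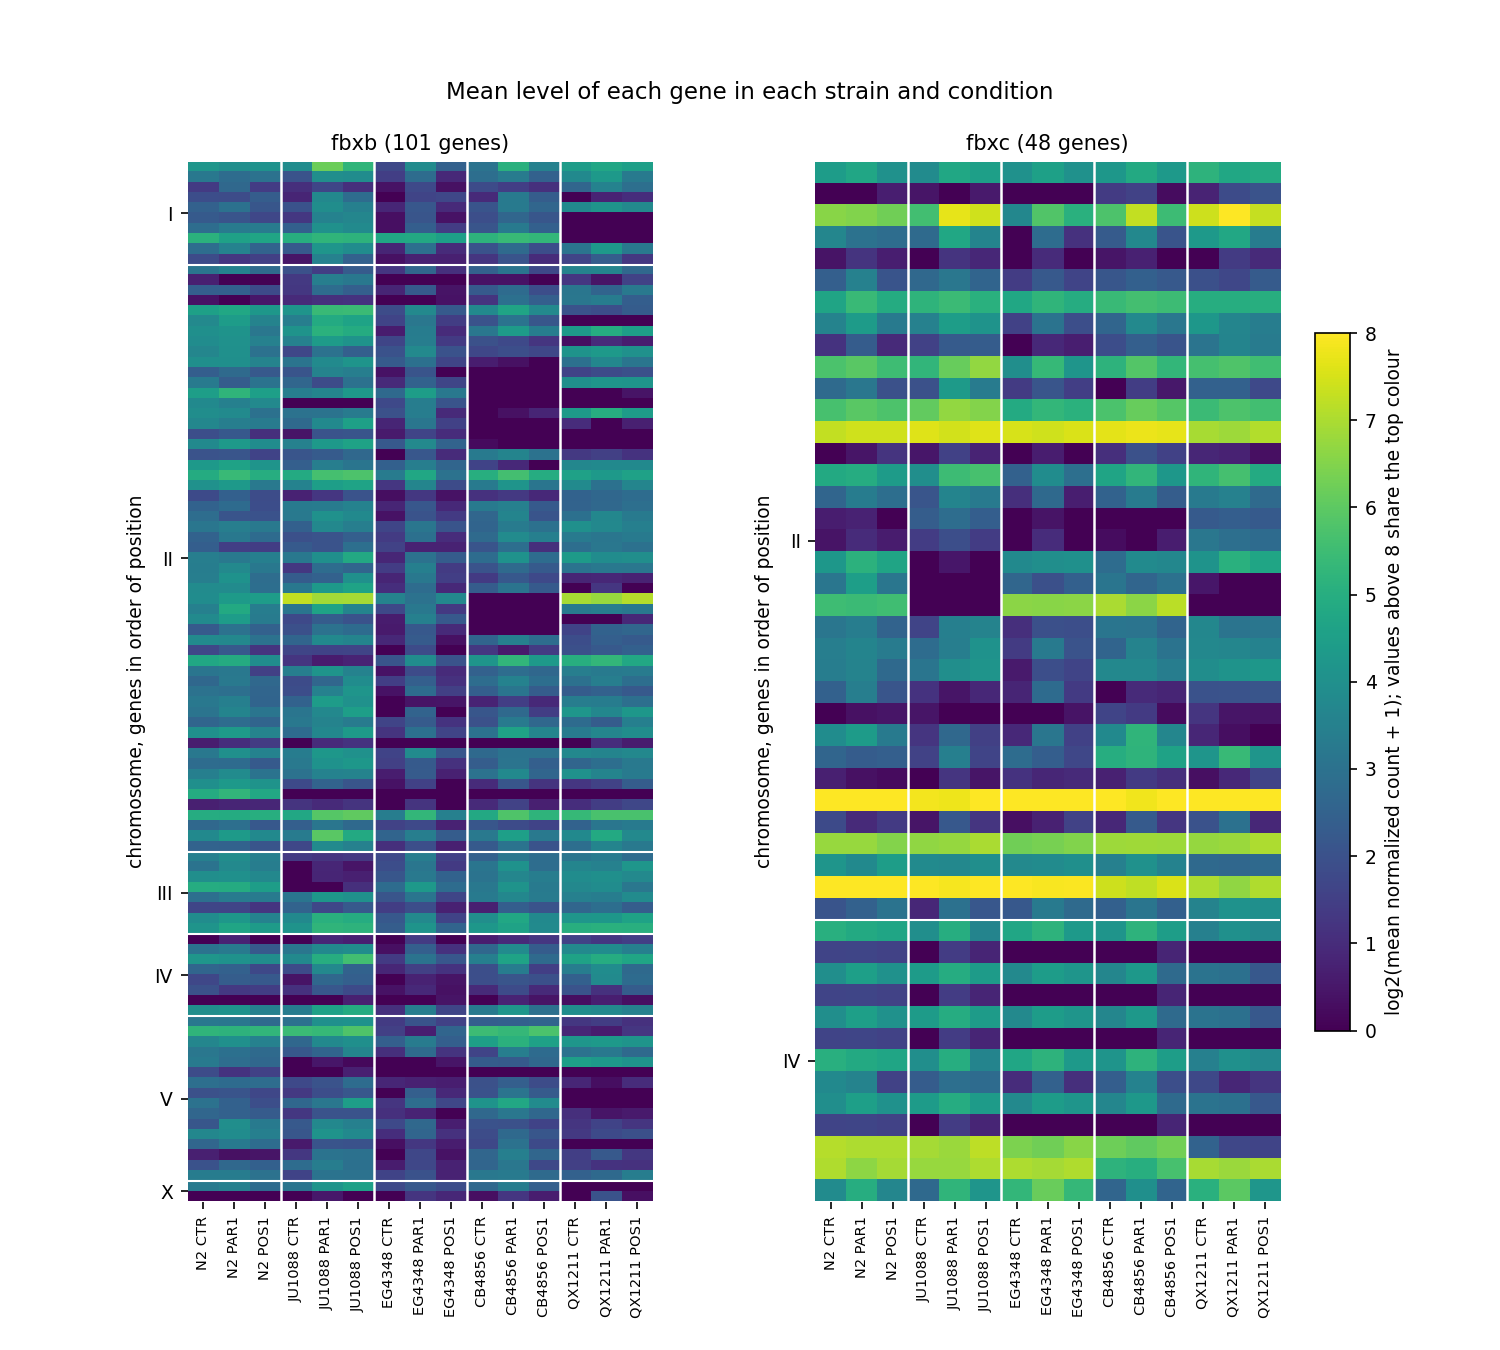
Mean normalized count (n = 3) of each of the 101 fbxb genes (left) and 48 fbxc genes (right), as log2(mean + 1) by colour, with genes in rows in order of position and the 15 combinations of strain and treatment in columns. The EG4348 CTR and POS1 columns are dark (low) over most fbxb rows, and runs of neighbouring rows are at 0 in CB4856 and QX1211.

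Whether the members differ between strains without RNAi was asked in the 15 CTR libraries, with a test over the 5 strains (edgeR quasi-likelihood, adjusted p under 0.1 over all genes). Of the 149 members, 135 had the minimum of 10 reads in these libraries, and 104 of the 135 (77.0%) differed between strains, against 35.1% of all 16486 genes tested. The share was alike in both families, 73 of 95 fbxb genes and 31 of 40 fbxc genes. Of the fbxa genes, the other large F-box family, 85 of 132 (64.4%) were called. Under a stricter filter on low counts (edgeR's filterByExpr) the number of members called was 66. That filter also takes members with few reads out of the test, so 66 is not a number out of 135.

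The strain with the lowest CTR mean was EG4348 for 72 of the 135 members (55 fbxb and 17 fbxc), QX1211 for 26, JU1088 for 18, CB4856 for 17 and N2 for 2. The highest was QX1211 for 53 and N2 for 52, with 15 for CB4856, 14 for JU1088 and 1 for EG4348.

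Of the 4 wild isolates, EG4348 had the most members below N2. Relative to N2, 72 members were lower and 2 higher, where 9.06% of all genes were lower and 4.32% higher, and the median log2 fold change was -2.31 over the 135 members (-2.0 with members at 0 in a strain set to the smallest difference that 3 reads allow). The median over all genes was within 0.04 of 0 in every pair of strains. The deficit was mainly in fbxb genes: 59 of 95 were lower and 0 higher (median -2.52), and of fbxc genes 13 of 40 were lower and 2 higher (median -0.69). The fbxa genes had a median of -0.21, with 22 of 132 lower and 12 higher. Among the 46 members with a mean of at least 10 normalized counts, 27 were lower (median -1.59). Without EG4348 CTR replicate 1, 49 members differed in either direction.

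The summed normalized count of the 101 fbxb genes shows the same difference by library. It was between 151 and 245 in the EG4348 CTR libraries. The next strain was CB4856 with 408 to 671, and N2, JU1088 and QX1211 had 692 to 1162, 706 to 775 and 751 to 974. No CTR library of another strain came within the range of EG4348. The number of fbxb genes above 0 was between 49 and 67 in the EG4348 CTR libraries and between 94 and 97 in N2. For fbxc genes the sum was between 1390 and 1402 in EG4348 and between 1702 and 1832 in N2, a smaller gap, and for fbxa genes it was between 4634 and 5045 in EG4348 and between 4880 and 5498 in N2, where the ranges overlap.

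**Figure D2:**
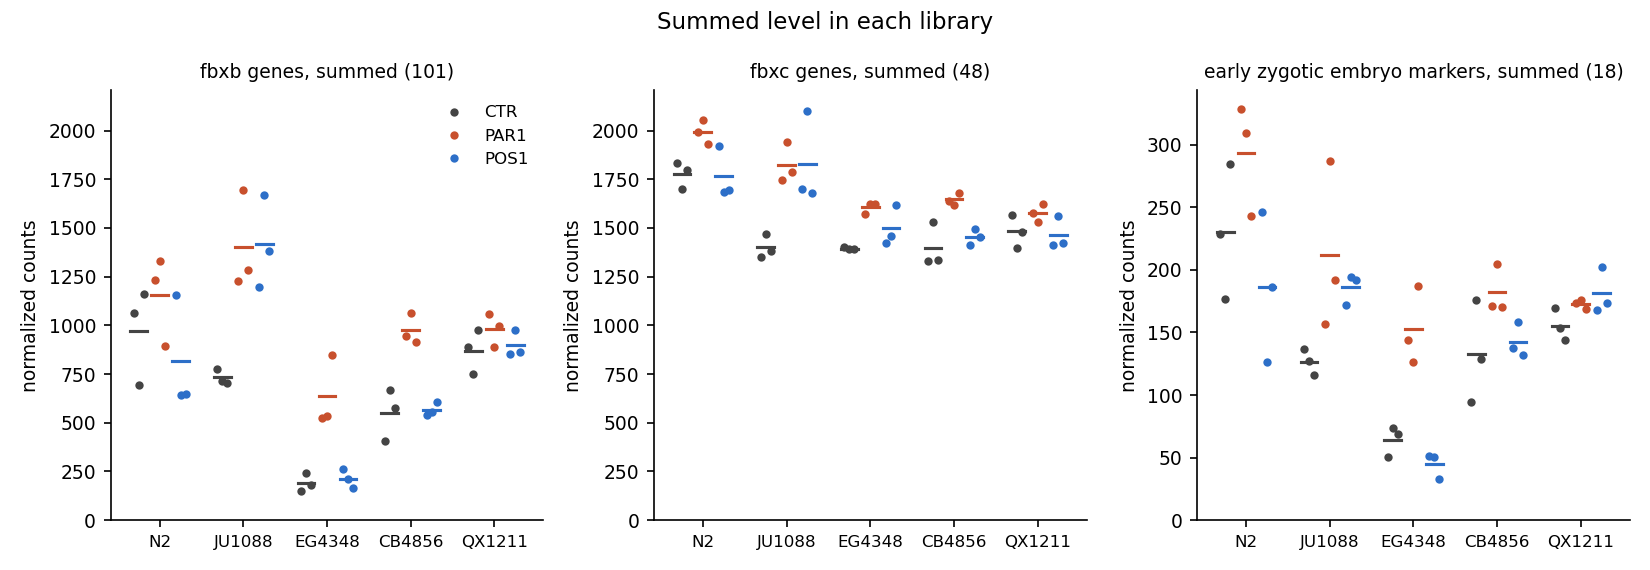
Summed normalized count of the 101 fbxb genes, the 48 fbxc genes and 18 early zygotic embryo markers in each library, by strain and treatment (points are libraries, bars the means of 3). EG4348 CTR and POS1 libraries have the lowest fbxb sums, and the EG4348 PAR1 libraries lie between 524 and 846.

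Single members follow. fbxc-51 (WBGene00021576, II:868814-871699) had 9.82, 14.0 and 12.4 normalized counts in the 3 EG4348 CTR libraries, against 151, 56.8 and 76.2 for N2, 38.2, 43.9 and 57.1 for JU1088, 44.7, 70.6 and 45.0 for CB4856 and 180, 152 and 167 for QX1211. EG4348 was below and QX1211 above every library of the other strains. The log2 fold change against N2 was -2.95 ± 0.36 (approximate SE, derived from the F statistic, adjusted p = 5.17e-05) in EG4348. It was 0.81 ± 0.28 (adjusted p = 0.0627) in QX1211.

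fbxb-7 (WBGene00012492, V:17377406-17379233) had 34.7, 37.0 and 39.3 normalized counts in N2, 58.0, 39.2 and 30.8 in JU1088 and 42.7, 43.2 and 45.5 in CB4856. It had 2.67, 1.41 and 1.56 in EG4348 and 0, 2.40 and 0 in QX1211. Both low strains were well apart from the other 3, with log2 fold changes against N2 of -4.14 ± 0.42 in EG4348 and -6.06 ± 0.59 in QX1211 (adjusted p = 8.94e-06 and 2.29e-06), and EG4348 and QX1211 did not differ past the threshold.

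fbxc-18 (II:965575-967062) had 4.48, 4.87 and 4.34 normalized counts in EG4348 CTR and 27.6, 18.9 and 37.8 in N2, a log2 fold change of -2.56 ± 0.43 (adjusted p = 0.0011). fbxb-104 (II:3475630-3477271) had 3.02, 0.845 and 0 in EG4348 and 14.1, 9.94 and 21.5 in N2, a difference of -3.18 ± 0.58 (adjusted p = 0.00218). Neither gene's EG4348 values overlapped those of any other strain in CTR. The members higher in EG4348 than in N2 were fbxc-42 and fbxc-58, named here after their values were seen.

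The difference between EG4348 and N2 was also read within each treatment, a comparison chosen after the data were seen, in the model of all 45 libraries, where all 149 members were tested. In CTR 85 members were lower and 2 higher in EG4348 (median -2.32; 7.83% of all genes lower and 3.76% higher). In POS1 69 were lower and 2 higher (median -1.76; 7.22% and 5.09%), and in PAR1 24 were lower and 1 higher (median -0.74; 4.54% and 2.78%). Against JU1088, 89 were lower and 9 higher in POS1 (median -2.71; 11.8% and 9.08%).

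The sums of early embryo and sperm markers moved with the member values in EG4348. The summed level of 18 early zygotic genes was between 50 and 73 normalized counts in EG4348 CTR libraries, with sdz-6 the marker at 0, and between 177 and 285 in N2 CTR, with no marker at 0; 5 of the 17 tested were lower in EG4348 (pes-10, sdz-6, ceh-51, sdz-10 and sdz-28). Of these, sdz-6 was at 0 in every library of all the wild isolates, so its difference from N2 was not particular to EG4348. In the EG4348 PAR1 libraries the early zygotic sum was between 127 and 187, and in POS1 between 33 and 52. The sum over 13 sperm genes was between 13 and 16 in EG4348 CTR, between 73 and 205 in N2 CTR, between 52 and 155 in EG4348 PAR1 and between 5 and 26 in EG4348 POS1. The summed oocyte, intestinal and body wall muscle markers were higher in the EG4348 CTR libraries than in the N2 CTR libraries, with no overlap (69180 to 72732 against 58597 to 64540, 842292 to 886736 against 680469 to 826165, and 26086 to 28252 against 19240 to 25488), and the neuron and hypodermal sums overlapped. The part of these cell types in the fbxb and fbxc values was not tested.

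The other wild isolates differed from N2 in smaller sets of members. In JU1088, 15 members were lower and 1 higher than in N2, fbxb-97 (median -0.65; 2.89% of all genes lower and 1.8% higher). In CB4856, 30 were lower and 4 higher, fbxc-20, fbxc-32, fbxc-33 and fbxc-42 (median -0.72; 5.07% lower and 4.8% higher). In QX1211, 36 were lower and 12 higher (median -0.07; 11.5% lower and 9.6% higher), the higher set being fbxb-2, fbxb-24, fbxb-39, fbxb-97, fbxb-105, fbxc-15, fbxc-20, fbxc-23, fbxc-30, fbxc-51, fbxc-54 and fbxc-58. QX1211 thus had called members in both directions and a median close to that of all genes.

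Between wild isolates, the counts again set EG4348 apart. EG4348 had 32 members lower and 6 higher than JU1088 (median -1.56; 4.11% of all genes lower and 2.77% higher). CB4856 had 43 higher and 10 lower than EG4348 (median 1.44; 9.04% and 4.54%), and QX1211 had 66 higher and 15 lower than EG4348 (median 1.74; 16% and 13.5%). CB4856 against JU1088 gave 12 higher and 11 lower (median -0.03; 3.5% and 2.95%), QX1211 against JU1088 gave 28 and 17 (median 0.40; 10.5% and 10.5%), and QX1211 against CB4856 gave 31 and 18 (median 0.53; 9.15% and 10.4%). Leaving out 1 library took the number called between EG4348 and JU1088 from 38 to 24 (without EG4348 CTR replicate 1) or 25 (without JU1088 CTR replicate 2), and that between CB4856 and EG4348 from 53 to 35 (without CB4856 CTR replicate 2).

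fbxc-47 and fbxc-45 were each low in a single strain. fbxc-47 (WBGene00019723, IV:3805519-3806712) had 32.5, 36.0 and 37.5 normalized counts in CB4856 CTR libraries and 137, 135 and 122 in N2, with the other strains between 78.9 and 148. CB4856 did not overlap any other strain, and its log2 fold change against N2 was -1.89 ± 0.19 (adjusted p = 3.89e-06). fbxc-45 (WBGene00021887, IV:2919827-2922243) had 0.785, 3.46 and 9.74 in QX1211 and 162, 137 and 112 in N2, with the other strains between 63.1 and 134. Here QX1211 stood apart by -5.14 ± 0.37 (adjusted p = 6.28e-08).

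fbxb-97 (WBGene00016885, II:1846977-1848161) had the smallest p of all members for strain (adjusted p = 1.04e-09). In CTR it had 172, 152 and 139 normalized counts in JU1088 and 120, 116 and 137 in QX1211, then 15.1, 9.73 and 16.3 in N2 and 13.2, 8.48 and 11.1 in EG4348, and 0 in all 3 libraries of CB4856. The strains fell into a high pair, a low pair and a strain at 0. JU1088 exceeded N2 by 3.48 ± 0.22 on the log2 scale (adjusted p = 3.65e-07), and N2 and EG4348 did not differ past the threshold.

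fbxc-20 (II:2419136-2420793), which overlaps F42G2.7 on the same strand, had 39.8, 29.1 and 23.8 normalized counts in CB4856 and 22.3, 12.1 and 16.2 in QX1211. In the 9 CTR libraries of N2, JU1088 and EG4348 it was between 1.10 and 8.10. CB4856 exceeded N2 by 2.57 ± 0.37 (adjusted p = 0.000238).

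The remaining highly expressed members varied less. fbxc-50 (II:3246316-3248123) was lowest in JU1088 at 26.8 ± 0.55 TPM and highest in QX1211 at 45.3 ± 3.5 TPM (QX1211 against JU1088, log2 fold change 0.74 ± 0.11, adjusted p = 0.000209). fbxc-32 (II:946485-948191) was lowest in QX1211 at 12.8 ± 2.4 TPM and highest in CB4856 at 21 ± 2.8 TPM (-0.73 ± 0.14, adjusted p = 0.00176). fbxc-52 (II:3717261-3719764) was lowest in EG4348 at 7.73 ± 0.85 TPM, with 10.9 ± 0.67 TPM in N2 (-0.47 ± 0.14, adjusted p = 0.0391), and its call for strain was lost without EG4348 CTR replicate 2 or 3.

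Members with no reads in any of the 9 libraries of a strain were then counted. There were 33 such members (22.1% of 149, against 8.6% of 18580 genes), and the deposited table and the estimated reads gave the same 47 pairs of member and strain. QX1211 had 18 of these (3.29% of genes), CB4856 had 14 (2.18%), EG4348 had 9 (3.35%), JU1088 had 4 (2.3%) and N2 had 2 (1.93%). At 0 in 1 strain were 23 members, in 2 strains 7, in 3 strains 2 and in 4 strains 1. The 4 fbxc-8 rows carry 1 shared set of values, but each is counted here for EG4348, for QX1211 and among the 7. These counts thus hold 1 measurement 4 times. A count of 0 allows up to 3 reads over the 9 libraries, which is a CPM between 0.037 and 0.0461 in the 5 strains, for counting error only.

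Requiring also that some pair of strains differed in CTR left 23 members (15.4%, against 3.15% of genes), called off here, of which 20 were fbxb and 3 fbxc. Per strain, 12 were off in CB4856 (1.03% of genes were), 13 in QX1211 (1.46%), 4 in JU1088 (0.797%), 1 in EG4348 (1.14%) and 0 in N2 (0.501%). EG4348, with the most members below N2 in CTR, had 1 off member, fbxb-91. With a limit of under 10 reads in place of 0 there were 53. Of the fbxa genes, 52 of 156 (33.3%) were at 0 in a strain and 35 (22.4%) were off. Every member had an entry in each strain's transcriptome; whether reads of the wild isolates could match these genes was not tested.

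fbxb-91 (WBGene00044692, II:3749061-3750785) was at 0 in all libraries of the 4 wild isolates. In N2 it had 33.3, 19.1 and 36.2 normalized counts in CTR, 43.7, 38.3 and 31.1 in PAR1 and 40.1, 26.6 and 13.5 in POS1. Its 302 reads in N2 thus stood against 0 in 36 libraries.

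Off members lay next to each other in several places. In CB4856, fbxb-97, fbxb-96, fbxb-95 and fbxb-98 were at 0, all 4 within II:1846977-1863782. Over the 9 libraries of each strain, fbxb-97 had 154 reads for N2, 1172 for JU1088, 98 for EG4348 and 1043 for QX1211. fbxb-96 had 149, 127, 37 and 78 reads in the same order, fbxb-95 had 135, 29, 45 and 2, and fbxb-98 had 46, 50, 15 and 36. All 4 were detected in each other strain, with fbxb-95 near the limit in QX1211.

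A further set at 0 in CB4856 was fbxb-52, fbxb-51, fbxb-54, fbxb-50 and fbxb-46, within II:1548938-1571132. fbxb-54 had 258 reads in N2, with 137 for JU1088, 109 for EG4348, 0 for CB4856 and 1 for QX1211. fbxb-50 had 120 reads in N2 and 46 in EG4348, and 0 in the other 3 strains. fbxb-51 and fbxb-52 had between 11 and 150 reads in each strain other than CB4856. Next along the chromosome, fbxb-21 (II:1647908-1648868) was at 0 in CB4856 and QX1211, and fbxb-20 (II:1649138-1650602), which overlaps fbxb-16, had 149 reads in N2, with 185 for JU1088, 66 for EG4348, 1 for CB4856 and 0 for QX1211. Apart from fbxb-91, the remaining member off in CB4856, fbxc-17 (II:976208-979235), had between 1 and 53 reads elsewhere.

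In QX1211 the off members were spread over more chromosomes. fbxb-69, fbxb-68 and fbxb-67 were at 0 within I:14283470-14298325. fbxb-67 had 0 reads there and between 241 and 398 in each other strain, and in CTR it had between 21.9 and 39.1 normalized counts in every library of the other strains. On chromosome V, fbxb-117, fbxb-57 and fbxb-61 were at 0 within V:19282614-19305290, and fbxb-57 had between 30 and 191 reads in the other strains. fbxb-71 (X:3262900-3264206) had between 25 and 152 reads elsewhere, and fbxb-45 (II:1042937-1044032) between 34 and 249.

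fbxc-42 (WBGene00018455, II:991600-993179) was at 0 in JU1088 and QX1211 and was among the more abundant members elsewhere. In CTR it had 42.5, 47.4 and 43.2 normalized counts in N2, 97.5, 98.0 and 92.5 in EG4348 and 136, 109 and 134 in CB4856. The 3 expressing strains did not overlap, and EG4348 and CB4856 exceeded N2 by 1.13 ± 0.17 and 1.5 ± 0.17 on the log2 scale (adjusted p = 0.00129 and 0.000103). Its neighbour fbxc-39 (II:988737-991146) was also at 0 in JU1088, with 2 reads for QX1211, 39 for EG4348, 56 for CB4856 and 112 for N2.

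fbxb-82, fbxb-83 and fbxb-84, side by side at the start of chromosome III and named after their values were seen, were at 0 in the 3 JU1088 CTR libraries but not in all 9. In N2 CTR fbxb-84 had 40.4, 20.4 and 29.5 normalized counts, and in JU1088 POS1 it had 1.06, 0.731 and 1.56. JU1088 was lower than N2 for all 3 genes (adjusted p = 0.0749, 0.0069 and 0.00095).

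**Figure D3:**
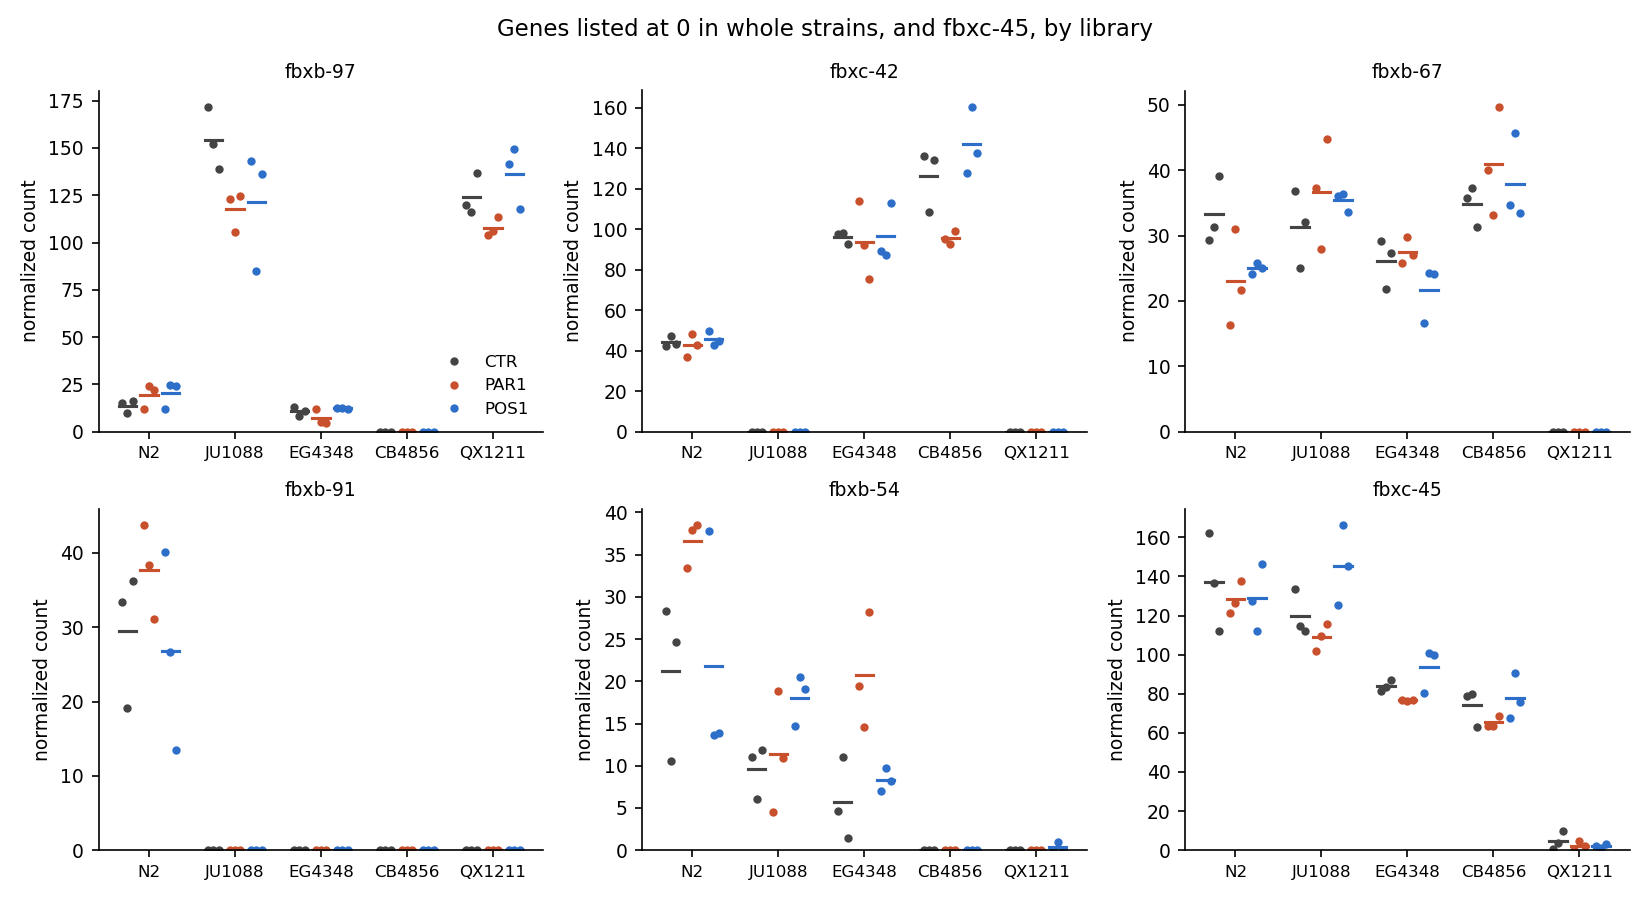
Normalized counts of fbxb-97, fbxc-42, fbxb-67, fbxb-91, fbxb-54 and fbxc-45 in each of the 45 libraries, by strain and treatment (points are libraries, bars the means of 3). fbxb-97 and fbxb-54 are at 0 in CB4856, fbxc-42 in JU1088 and QX1211, fbxb-67 in QX1211 and fbxb-91 in all 4 wild isolates, while fbxc-45 is low but above 0 in QX1211.

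The effect of RNAi was asked within each strain, with PAR1 and POS1 each compared with CTR in a model of all 45 libraries, a call being an adjusted p under 0.1 with a fold change above 1.5. All 149 members were tested. Numbers of members with a positive sign are given below without that of all genes, whose median log2 fold changes stayed near 0. In PAR1, 38 members were called higher in JU1088, 32 in EG4348, 8 in CB4856, 2 in QX1211 and 1 in N2. Of all genes, 7.86%, 2.13%, 3.94%, 4.54% and 0.856% rose, in the same order. The QX1211 and N2 numbers, of 149 members, were thus not above the share of all genes, and the CB4856 number was close to it. In POS1 members rose in JU1088 only, and 0 members fell in each of the 10 contrasts. PAR1 and POS1 of a strain were compared with the same 3 CTR libraries, and these CTR libraries also enter the strain comparisons above.

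In JU1088 PAR1, 38 members rose and 0 fell (7.86% and 0.641% of all genes), 25 fbxb and 13 fbxc, with a median log2 fold change of 1.07 over the 149 and a positive sign for 124. With members at 0 in a group set to their bound the median was 0.86. The called members ranged from 0.65 in fbxc-36 to 4.16 in fbxb-70 (median 2.09), 22 of the 38 were on chromosome II, and 22 had a mean under 10 normalized counts. Without JU1088 PAR1 replicate 2 there were 8 calls, and without CTR replicate 1, 2 or 3 there were 20, 24 and 23; without that PAR1 library 118 members still had a positive sign (median 0.81).

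The summed levels of cell type markers, in normalized counts, also moved in the JU1088 PAR1 libraries, with no overlap with CTR for 5 of the 7 marker lists. The neuron sum was between 1317 and 1520 in PAR1 and between 1097 and 1149 in CTR, and the intestinal sum between 883419 and 972049 against 735122 to 775709. The oocyte sum was lower, between 48677 and 62417 against 66786 to 68005, and so was the hypodermal sum, between 14888 and 20961 against 23145 to 25808. The early zygotic sum was between 157 and 287 in PAR1 and between 116 and 136 in CTR, and its genes moved both ways: tbx-37 rose by 2.29, tbx-38 by 2.19 and sdz-10 by 1.66 on the log2 scale, and end-1 fell by 3.49. The part of these markers in the member values was not tested.

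In JU1088 POS1, 38 members rose and 0 fell (5.3% and 2.94% of all genes), 32 fbxb and 6 fbxc, with a median of 1.17 (0.86 with bounds) and a positive sign for 132. The fbxb genes had a median of 1.31 and the fbxc genes of 0.50. The called members ranged from 0.91 in fbxb-17 to 3.22 in fbxb-77 (median 1.70). The number of calls rests on JU1088 POS1 replicate 2: without it 3 members were called, and 113 had a positive sign (median 0.92). Without JU1088 CTR replicate 2 or 3 there were 18 and 20. In the POS1 libraries the neuron sum was above CTR (1238 to 1699), and the body wall muscle and hypodermal sums were below it (16797 to 25035 against 27889 to 30993, and 10548 to 19375). The zygotic sum was above CTR (172 to 194); tbx-37 rose by 1.68, tbx-38 by 1.65 and sdz-10 by 1.66, while end-1 fell by 3.18 and ceh-51 by 3.88. Their part in the member values was not tested.

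In EG4348 PAR1, 32 members rose and 0 fell (2.13% and 0.253% of all genes), 25 fbxb and 7 fbxc, with a median of 1.70 (1.33 with bounds) and a positive sign for 124. The fbxb genes had a median of 1.91 and the fbxc genes of 0.71, and 26 of the 32 were on chromosome II. Of the 32, 4 were at 0 in all 3 EG4348 CTR libraries, and the others ranged from 1.45 in fbxc-28 to 4.32 in fbxb-40. There were 12 calls without EG4348 CTR replicate 1 or PAR1 replicate 3 (medians 1.55 and 1.31) and 18 without CTR replicate 3. The EG4348 PAR1 libraries are those in which the early zygotic and sperm sums given above were higher than in CTR, and of the zygotic markers pes-10, tbx-38, ceh-51 and sdz-28 rose; the part of these in the member values was not tested. The oocyte and hypodermal sums were lower in these PAR1 libraries than in CTR (64216 to 68162 against 69180 to 72732, and 15136 to 16912 against 17721 to 21375), and the intestinal and body wall muscle sums were higher (961904 to 1113690 against 842292 to 886736, and 29154 to 31356 against 26086 to 28252), with no overlap.

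In CB4856 PAR1, 8 members rose and 0 fell (3.94% and 0.468% of all genes), with a median of 0.67 (0.65 with bounds), from 0.97 in fbxb-103 to 2.11 in fbxb-66. The number called, 8 of 149, was close to the share of all genes that rose. Leaving out 1 CB4856 library gave between 2 calls (without CTR replicate 3) and 15 (without CTR replicate 2). In these PAR1 libraries the oocyte sum was below CTR (53476 to 58468 against 63533 to 66373) and the neuron sum above it (1432 to 1495 against 1100 to 1356); their part in the member values was not tested. In QX1211 PAR1, 2 members rose and 0 fell (4.54% and 0.608% of all genes; median 0.06). In N2 PAR1, 1 member rose, fbxc-33, and 0 fell (0.856% and 0.301% of all genes; median 0.27). DESeq2 called 0 in both contrasts.

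In POS1 no member was called in N2, EG4348, CB4856 or QX1211 by edgeR or by DESeq2. At an unadjusted p under 0.05 there were 9 for EG4348, 5 each for N2 and CB4856 and 1 for QX1211. No share of all genes is given at that threshold, so nothing is read from these numbers. At the threshold for a call, few genes of any kind passed in these strains. Of all genes, 0.0969% rose and 0.118% fell in N2, 0.0215% and 0.0431% in EG4348, 0.0592% and 0.0969% in CB4856 and 0% and 0.0807% in QX1211. In N2 the median over the members was -0.14, in libraries where the pos-1 transcript was itself lower. The 6 members of highest TPM were not called in any contrast; fbxc-44 and fbxc-50 had adjusted p of 0.0537 and 0.0339 in QX1211 PAR1 with log2 fold changes of -0.40 and -0.38, under the fold change required.

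**Figure D4:**
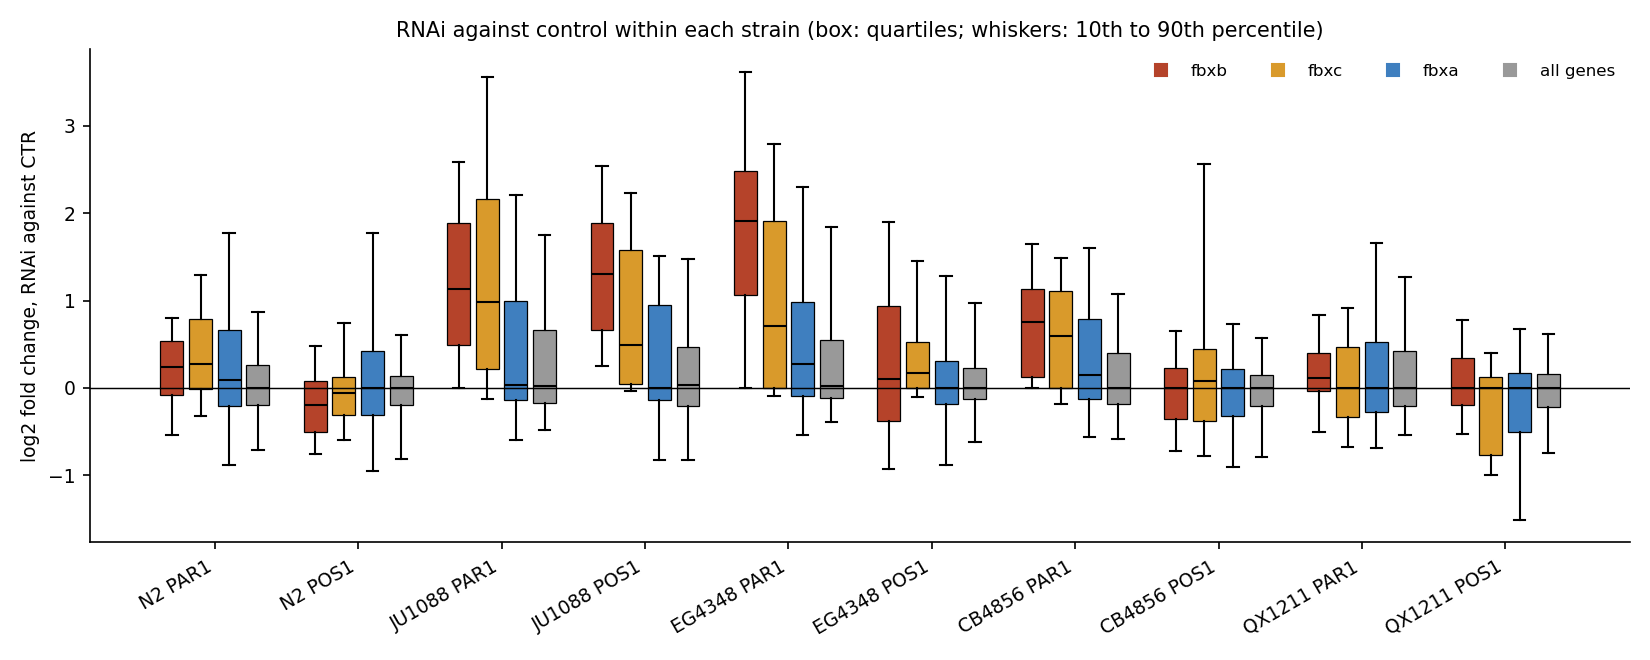
Log2 fold change of RNAi against CTR in each of the 10 contrasts for fbxb, fbxc and fbxa genes and all genes tested (boxes give the median and quartiles, whiskers the central part named in the title). The fbxb boxes lie above 0 in JU1088 PAR1, JU1088 POS1 and EG4348 PAR1, with medians of 1.13, 1.31 and 1.91, while the medians of all genes stay near 0.

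The fbxa genes were counted in the same contrasts. In JU1088 PAR1, 12 of 156 rose (median 0.03), in JU1088 POS1 10 rose and 1 fell (median 0.00), in EG4348 PAR1 3 rose (median 0.27) and in CB4856 PAR1 9 rose (median 0.14). These counts were below those of the 149 members in the first 3 contrasts and 1 above theirs in CB4856 PAR1. The difference between the families was not tested.

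In contrasts with separate controls some of the called members were shared. EG4348 PAR1 and JU1088 POS1 shared 17 members, 53.1% of the former's calls and 44.7% of the latter's. EG4348 PAR1 and JU1088 PAR1 shared 10 (31.2% and 26.3%), and EG4348 PAR1 and CB4856 PAR1 shared 7 (21.9% and 87.5%). These shares were not tested, and the overlap of the same contrasts over all genes is not set beside them.

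fbxb-103 (WBGene00018746, II:3907140-3908516) had 2.41, 9.73 and 16.5 normalized counts in EG4348 CTR, 39.4, 29.4 and 47.1 in PAR1 and 11.9, 11.4 and 7.06 in POS1. PAR1 was above both other groups in every library (2.14 ± 0.41 on the log2 scale, adjusted p = 0.00169). In JU1088 it had 28.2, 29.7 and 23.2 in CTR, 43.2, 82.9 and 49.8 in PAR1 and 61.4, 57.5 and 78.3 in POS1, and both RNAi groups were above CTR (1.13 ± 0.35 and 1.30 ± 0.34, adjusted p = 0.0347 and 0.0177). In N2 it lay between 17.7 and 39.8 in all 9 libraries, and the treatments overlapped.

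fbxb-66 (WBGene00044066, I:13423997-13425148) had 11.0, 15.1 and 15.5 normalized counts in JU1088 CTR, 58.3, 97.2 and 61.6 in PAR1 and 26.2, 49.9 and 33.0 in POS1. The groups did not overlap and PAR1 was highest (2.36 ± 0.47 in PAR1, adjusted p = 0.000932; 1.42 ± 0.47 in POS1, adjusted p = 0.0585). In CB4856 it had 6.52, 9.21 and 6.19 in CTR, 25.5, 42.2 and 31.4 in PAR1 and 11.8, 11.9 and 7.83 in POS1. PAR1 stood above CTR in every CB4856 library (2.11 ± 0.48, adjusted p = 0.00812).

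fbxc-51, the member at the start of the longest run, had 161, 299 and 166 normalized counts in JU1088 PAR1 and 107, 297 and 104 in POS1, all above the CTR values given above (2.15 ± 0.44 and 1.89 ± 0.43, adjusted p = 0.00121 and 0.00679). In CB4856 PAR1 it had 163, 166 and 131, also above CTR (1.49 ± 0.41, adjusted p = 0.031), a call that was lost without CB4856 CTR replicate 1 or 3. In EG4348 PAR1 it had 34.7, 48.4 and 85.6, above CTR (2.19 ± 0.52, adjusted p = 0.0159). In N2 PAR1 it had 91.3, 102.6 and 71.6, within the range of N2 CTR.

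fbxb-88 (II:4826446-4827884) had 5.60, 12.4 and 9.23 normalized counts in JU1088 CTR and 37.3, 97.8 and 48.7 in PAR1 (2.73 ± 0.54, adjusted p = 0.000959). In EG4348 PAR1 it had 9.75, 5.49 and 13.8 against 6.08, 5.49 and 3.16 in CTR, where the groups overlapped and no call was made. fbxb-88 was thus called in both JU1088 contrasts (POS1 adjusted p = 0.0582) and in no other.

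The JU1088 POS1 calls with the smallest p were fbxc-28, fbxc-18 and fbxb-106. fbxc-28 (II:923821-925196) had 38.1, 35.2 and 38.2 normalized counts in CTR and 70.7, 152 and 89.0 in POS1 (1.52 ± 0.32, adjusted p = 0.00409). Its highest value was that of POS1 replicate 2, without which it was not called. fbxc-18 had 11.3, 18.5 and 13.3 in CTR and 44.4, 65.7 and 38.9 in POS1 (1.82 ± 0.39, adjusted p = 0.0043), and the groups did not overlap.

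fbxb-95 and fbxb-31 rose in EG4348 PAR1 but were not called in another contrast. fbxb-95 had 1.53, 0 and 0 normalized counts in EG4348 CTR and 8.80, 12.0 and 10.2 in PAR1 (3.77 ± 0.76, adjusted p = 0.00594). fbxb-31 (II:3637805-3639338) had 2.38, 3.71 and 0 in CTR and 9.5, 11.6 and 19.7 in PAR1 (2.48 ± 0.52, adjusted p = 0.00447). In both genes PAR1 was above CTR in every EG4348 library and overlapped the range of N2 CTR, which was 8.77 to 15.4 for fbxb-95 and 6.83 to 10.2 for fbxb-31.

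fbxb-104 had 5.87, 8.28 and 6.99 normalized counts in CB4856 CTR and 26.0, 22.9 and 20.8 in PAR1, with no overlap (1.68 ± 0.41, adjusted p = 0.0157). fbxc-33 (II:913672-915219) in N2 had 25.6, 25.8 and 21.7 in CTR and 38.3, 36.8 and 51.0 in PAR1 (0.77 ± 0.21, adjusted p = 0.0494). In QX1211 PAR1, fbxc-20 had 38.0, 54.2 and 31.4 against 22.3, 12.1 and 16.2 in CTR (1.19 ± 0.40, adjusted p = 0.0725). The other QX1211 call, fbxb-114 (X:16921833-16923145), was at 0 in all 3 CTR libraries and had 3.22, 1.92 and 4.32 in PAR1 (adjusted p = 0.0694), a level of few reads. The calls of fbxc-33, fbxc-20 and fbxb-114 in these contrasts were each lost under some other setting.

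**Figure D5:**
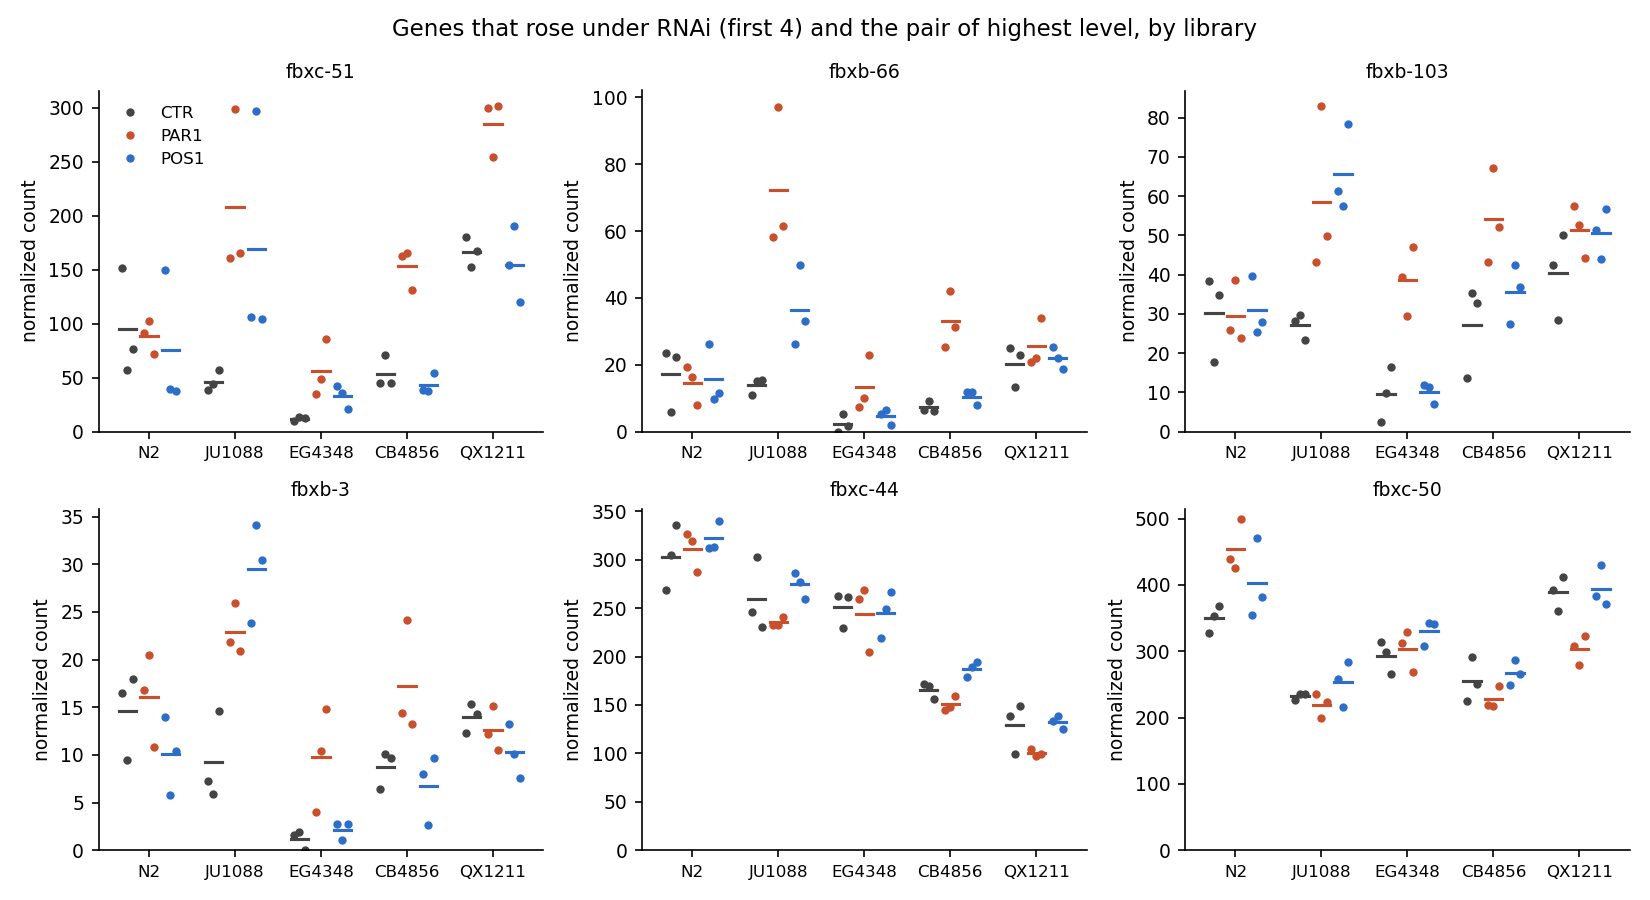
Normalized counts of fbxc-51, fbxb-66, fbxb-103 and fbxb-3, which rose under RNAi, and of fbxc-44 and fbxc-50, the highest in TPM, in each library by strain and treatment (points are libraries, bars the means of 3). In JU1088 and EG4348 the PAR1 libraries of fbxb-103 and fbxc-51 lie above all CTR libraries of the same strain, and in N2 the treatments overlap.

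Whether the response to RNAi differs between strains was tested with the interaction of strain and treatment in all 45 libraries. It was past the threshold for 9 members (6.04% of 149, against 1.29% of 18576 genes), 8 fbxb and 1 fbxc, and for 2 of 156 fbxa genes. Leaving out 1 library gave between 2 members (without QX1211 PAR1 replicate 3) and 19 (without JU1088 POS1 replicate 1). It gave 3 to 5 without EG4348 CTR replicate 1, any JU1088 CTR library, JU1088 POS1 replicate 2, QX1211 PAR1 replicate 2 or QX1211 POS1 replicate 1, and 14 without N2 POS1 replicate 1 or 2. There was 1 without the 3 libraries of shared fragment length, 5 with the replicate block and 24 by DESeq2. The smallest p was that of fbxb-105 (WBGene00017251, II:2769509-2770888; adjusted p = 0.0238), which had 0 in all EG4348 CTR and POS1 libraries and 4.06, 1.19 and 9.43 normalized counts in EG4348 PAR1. In QX1211 it had 13.8, 14.6 and 23.9 in CTR and 13.0, 8.91 and 14.3 in PAR1, so that EG4348 PAR1 was above CTR and QX1211 PAR1 overlapped it.

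fbxb-3 (WBGene00009546, IV:11838957-11840426; adjusted p = 0.053) had 1.62, 1.87 and 0 normalized counts in EG4348 CTR and 4.03, 10.4 and 14.8 in PAR1, and 7.29, 5.91 and 14.6 in JU1088 CTR against 23.8, 34.1 and 30.5 in POS1. In N2 it had 16.5, 9.42 and 17.9 in CTR and 14.0, 5.80 and 10.4 in POS1, which overlapped. fbxb-106 (WBGene00017911, II:2762408-2763507; adjusted p = 0.0645) had 0, 0.908 and 0 in EG4348 CTR and 4.94, 5.77 and 7.43 in PAR1, and 0, 2.94 and 5.14 in JU1088 CTR against 17.8, 15.5 and 18.1 in POS1. The interaction of fbxb-3 was not past the threshold without JU1088 POS1 replicate 2. That of fbxb-106 was lost on leaving out any 1 of EG4348 CTR replicate 1, JU1088 CTR replicate 2, JU1088 POS1 replicate 3 and QX1211 PAR1 replicate 3. Both were lost without the 3 libraries of shared fragment length.

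The genes that work with F-box proteins were read beside them, as 20 skr adaptor genes and 13 other SCF and ubiquitin genes. The most abundant in CTR were ned-8, the ubiquitin-like modifier of cullins, at 547 ± 68.3 TPM, skr-2, a Skp1-related adaptor, at 253 ± 19.4 TPM, and uba-1, the ubiquitin-activating enzyme, at 252 ± 12.4 TPM (mean ± SD over 15 libraries), far above any fbxb or fbxc gene. In CTR 15 of the 32 tested differed between strains, where 35.1% of all genes did. Against N2, EG4348 had 3 higher and 8 lower, where 4.32% of all genes were higher and 9.06% lower.

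Under RNAi all the called SCF genes were skr adaptors, and none fell. In JU1088 PAR1, 11 rose (skr-4, skr-5, skr-7, skr-8, skr-9, skr-10, skr-12, skr-13, skr-14, skr-19 and skr-21), with log2 fold changes from 0.67 to 2.55. In JU1088 POS1, 10 rose, namely skr-4, skr-7, skr-8, skr-9, skr-10, skr-12, skr-13, skr-14, skr-15 and skr-21, from 0.63 to 1.87. In EG4348 PAR1, 4 rose, skr-8 by 1.61, skr-9 by 1.98, skr-10 by 1.42 and skr-12 by 0.82. In CB4856 PAR1, 5 rose, skr-8 by 1.18, skr-9 by 0.79, skr-10 by 0.88, skr-12 by 0.77 and skr-21 by 1.30, and in QX1211 PAR1 skr-21 rose by 0.98. No SCF gene was called in N2 or in POS1 of EG4348, CB4856 or QX1211. The share of all genes that rose was 7.86% in JU1088 PAR1 and 5.3% in JU1088 POS1. It was 2.13% in EG4348 PAR1, 3.94% in CB4856 PAR1 and 4.54% in QX1211 PAR1. skr-8, as an example, had 66.6 ± 4.19 normalized counts in JU1088 CTR, 204 ± 51.2 in PAR1 and 200 ± 17.6 in POS1, and 20.4 ± 6.20 in EG4348 CTR and 62.5 ± 16.9 in PAR1 (SD, n = 3).

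Of 8 F-box genes conserved in other animals, 5 differed between strains in CTR, where 35.1% of all genes did. Among the 8 are lin-23 and sel-10, which act in cell division and Notch signalling. In JU1088 POS1, where 5.3% of all genes rose, mfb-1 rose by 1.31 and fbxl-1 by 1.45 on the log2 scale. None of the 8 was called in the other 9 contrasts.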

How the data were processed

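RNA from whole worms was sequenced as directional, single-end libraries. The authors trimmed reads with Trimmomatic 0.3.9, quantified strain-specific transcriptomes with Salmon and normalized in DESeq2 1.32.0. They deposited a table of DESeq2-normalized counts (a signal scaled by library and transcript length) and, per library, estimated counts and TPM of transcripts. Here estimated counts were summed by gene, rounded, and tested in edgeR 4.0.16 (R 4.3.3; quasi-likelihood, TMM, transcript length offsets), with genes of at least 10 reads in the model and Benjamini-Hochberg adjustment over all genes. The ± after a log2 fold change is the absolute fold change divided by the square root of the test's F statistic. It is an approximate SE not estimated by the model, and only a rough guide for genes near 0 in a group. The strain model used the 15 CTR libraries and the RNAi and interaction models all 45. For the RNAi model the fits that left out a library reused the trended dispersion of all 45. DESeq2 1.42.0 with ashr 2.2.63 was an alternative. Replicates were separate sets of plates handled together, so p-values measure the spread between those sets. Scripts were tested on simulated data.

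Of 65173 transcripts, 21 matched no gene (at most 0.0075% of reads). The members and lists were chosen with earlier results of these data known. Named members were the 6 of highest CTR TPM, the 8 of smallest p for strain, up to 8 off members of highest level, up to 3 calls of smallest p per direction and RNAi contrast, the 3 of smallest interaction p and those off in 4 strains; others are said to be chosen after seeing values. Gene sequences were not used here.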

Additional observations from a re-analysis of the deposited data

Results flagged for a closer look

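The response to RNAi differed between strains by the interaction test for 9 members (edgeR, adjusted over all genes): fbxb-105 (adjusted p = 0.0238), fbxb-3 (0.053), fbxb-106 (0.0645), fbxb-13 (0.0654), fbxb-26 (0.067), fbxb-57 (0.0729), fbxb-103 (0.0803), fbxc-51 (0.0934) and fbxb-93 (0.0941). Their number ranged from 2 to 19 on leaving out 1 library, and was 1 without the 3 libraries of shared fragment length, 5 with the replicate block and 24 by DESeq2. The library values of fbxb-105, fbxb-3, fbxb-106, fbxb-103 and fbxc-51 are given above.

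fbxb-13 had 0, 0.822 and 1.52 normalized counts in EG4348 CTR and 2.39, 8.19 and 14.2 in PAR1, and 0.807, 1.49 and 0 in QX1211 CTR against 1.04, 0.826 and 0.701 in PAR1. It was higher in PAR1 in EG4348 and overlapped CTR in QX1211. fbxb-26 had 1.52, 2.67 and 0 in EG4348 CTR and 7.28, 10.2 and 16.5 in PAR1, and 9.79, 17.6 and 12.6 in QX1211 CTR against 10.5, 5.13 and 4.94 in PAR1.

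fbxb-57 had 5.80, 7.33 and 3.16 normalized counts in JU1088 CTR and 17.8, 28.4 and 18.4 in POS1, and 8.56, 5.68 and 6.85 in N2 CTR against 4.63, 2.19 and 1.44 in POS1. fbxb-93 had 1.84, 4.42 and 3.02 in JU1088 CTR and 10.1, 22.9 and 10.9 in PAR1, and 5.67, 7.45 and 11.6 in N2 CTR against 5.71, 7.20 and 5.18 in PAR1. Both genes rose in JU1088 with no overlap between the groups; in N2 fbxb-57 was lower in POS1 than in CTR in every library, and fbxb-93 overlapped.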

How the results depend on the processing

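Of 738 alternative values of the 35 named results, 706 kept their side of the threshold and 32 lost the call. Of the 35, 8 lost it under at least 1 setting. Only the 15 RNAi results have a direction, and none of these reversed, while the 17 strain and 3 interaction results have none. Settings in which a gene was not tested are not among the 738, so they could not count as a lost call. The causes of the changes below were not tested.

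With filterByExpr, 66 members differed between strains, 28 between QX1211 and N2, 31 between QX1211 and CB4856, 2 were called in N2 PAR1 and 1 in QX1211 PAR1. These are numbers among the members that passed that filter, not among all members tested above. Without length offsets there were 0 calls in N2 PAR1, 15 in CB4856 PAR1 and 14 interactions. Models of a single strain gave 0 in N2 PAR1, 23 in JU1088 PAR1, 18 in JU1088 POS1 and 6 in QX1211 PAR1. DESeq2 gave 0 in N2 PAR1, 20 in JU1088 PAR1, 4 in CB4856 PAR1, 0 in QX1211 PAR1 and 24 interactions. With no fold change minimum there were 2 in N2 PAR1 and 4 in QX1211 PAR1. Without the 3 libraries of shared fragment length there were 3 in JU1088 POS1, 1 in QX1211 PAR1 and 1 interaction. Under 10 reads in place of 0 gave 53 off members.

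Leaving out 1 library gave 49 to 69 members between EG4348 and N2, 24 to 32 between EG4348 and JU1088, 35 to 52 between CB4856 and EG4348, 0 to 1 in N2 PAR1, 8 to 38 in JU1088 PAR1, 3 to 46 in JU1088 POS1, 12 to 29 in EG4348 PAR1, 2 to 15 in CB4856 PAR1, 0 to 1 in QX1211 PAR1 and 2 to 19 interactions. The interaction count was lowest without QX1211 PAR1 replicate 3 and highest without JU1088 POS1 replicate 1.

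Groups shared replicate numbers but not animals; same-numbered deviations correlated from -0.318 to 0.484, and 12 of 30 libraries correlated best with their own number. With the replicate number as a block there were 100 strain calls, 71 between EG4348 and N2, 35 in JU1088 PAR1, 34 in JU1088 POS1, 29 in EG4348 PAR1, 7 in CB4856 PAR1 and 5 interactions.

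Depth limits these genes, since 46 of 149 had a mean of at least 10 normalized counts.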
